A study of Mus musculus with 6 samples.

Results

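A set of 10 macrophage markers was followed in subcutaneous white adipose tissue (scWAT), the inguinal fat pad beneath the skin of the mouse. They were listed as known markers, by a rule that names no measured value, and are 10 of the 55401 genes counted in the files. Earlier results of these data were known when these genes and the lists used below were chosen. *Adgre1*, *Cd68* and *Csf1r* mark macrophages in general, *Mrc1*, *Cd163*, *Lyve1*, *Timd4* and *Retnla* mark macrophages resident in tissue, and *Trem2* and *Gpnmb* mark lipid-associated macrophages. The study deleted *Yap* and *Taz*, which encode the transcriptional coactivators YAP and TAZ, in fat cells and sequenced the RNA of whole scWAT to find which transcripts differ. The 3 control libraries carry the genotype label WT and came, per the study's methods, from *Yap* fl/fl;*Taz* fl/fl mice without Cre (YT-FF). The 3 libraries labelled YT-AKO came from mice with the same floxed alleles that also carried *Adipoq* Cre, a Cre driven by the promoter of *Adipoq*, a gene of mature adipocytes. All were male, 8 weeks old, on floxed strains of C57BL/6-129 origin, fed normal chow and kept at room temperature. The Cre is therefore not directed at macrophages, which carry the floxed alleles in both groups.

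Adipose macrophages clear dead cells and debris, take up lipid released by adipocytes and sit along vessels and nerves. Their survival depends on colony stimulating factor 1 receptor (CSF1R) and its ligands CSF1 and IL-34, and interleukin 4 acting through STAT6 raises genes of alternative activation such as *Retnla*. In obese or remodelling fat, macrophages that surround dying adipocytes and load lipid express the lipid receptor TREM2, which signals through the adaptor TYROBP (DAP12) and the kinase SYK. The inguinal pad also contains a lymph node, which has its own macrophages, B cells and T cells. Because whole tissue was measured, fewer cells of a type and less RNA per cell cannot be told apart in any value given here.

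Each library held 17740987 to 21838493 gene counts. All 10 genes passed the low-count filter, as did 16807 of the 55401 genes. Values are given as CPM, counts scaled to a common library size, with edgeR's TMM factors, listed for libraries 1, 2 and 3 of each group, and 3 counts corresponded to 0.128 to 0.177 CPM. *Yap1* fell from 64.2 ± 6.33 to 32.6 ± 4.52 CPM (SD, n = 3 libraries per group; log2 fold change −0.98, SE 0.167, adjusted p = 0.0179). *Wwtr1*, which encodes TAZ, rose from 84.0 ± 12.7 to 156 ± 21.5 CPM (log2 fold change 0.89, SE 0.182, adjusted p = 0.0220), against the deletion that its label states. These counts cover whole genes, so a deleted exon cannot be seen in them, and each direction below is that of the libraries labelled YT-AKO. Long genes read lower and short genes higher in those libraries, with a median log2 fold change of 0.50 among 1422 tested genes under 1000 bp and −0.26 among 8176 tested genes over 4000 bp. YT-AKO 2 lay farthest out on this axis, its median deviation being 0.64 for the genes under 1000 bp against 0.08 to 0.10 in the other YT-AKO libraries. Tests were therefore repeated with a correction for gene length and without YT-AKO 2. YT-AKO 1 held 3341 CPM of skeletal muscle marker genes against 120 to 450 CPM in the YT-FF libraries.

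*Trem2* and *Retnla* were the 2 members whose groups did not overlap, as in 25.7% of tested genes with YT-AKO above and 25.8% below. The sequences in front of these 2 and of *Cd68*, a pan-macrophage gene to read them against, are shown. They are the RefSeq bases upstream of the gene start on GRCm38.p6, 5′ to 3′ on the gene's strand, and end at the base before the start, from which distances are counted. The *Retnla* stretch stops earlier, where the gene begins in the annotation behind the counts. Capitals mark matches, on either strand, to the letters GAGGAA of the macrophage factor PU.1, TTGCNNAA of C/EBP factors, where N is any base, and to the STAT letters, which are TTC and GAA with 4 bases between them. On the opposite strand the PU.1 letters read TTCCTC.
Cd68, chr11:69666171-69666420, minus strand: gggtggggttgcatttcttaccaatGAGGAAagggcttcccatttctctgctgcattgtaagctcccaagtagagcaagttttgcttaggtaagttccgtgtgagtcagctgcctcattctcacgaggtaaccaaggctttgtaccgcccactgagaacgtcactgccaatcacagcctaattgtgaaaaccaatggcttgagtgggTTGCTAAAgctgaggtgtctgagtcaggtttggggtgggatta
Retnla, chr16:48842359-48842550, plus strand: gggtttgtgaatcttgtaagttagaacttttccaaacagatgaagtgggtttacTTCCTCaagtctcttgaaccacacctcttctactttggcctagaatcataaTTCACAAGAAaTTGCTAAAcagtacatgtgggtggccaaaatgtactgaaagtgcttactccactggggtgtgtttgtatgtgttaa
Trem2, chr17:48346151-48346400, plus strand: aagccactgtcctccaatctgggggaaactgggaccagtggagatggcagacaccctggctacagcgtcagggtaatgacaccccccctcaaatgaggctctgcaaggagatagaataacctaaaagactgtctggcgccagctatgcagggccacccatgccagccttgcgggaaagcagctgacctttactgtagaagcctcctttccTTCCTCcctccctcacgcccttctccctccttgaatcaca
The PU.1 letters occurred 225 bp upstream of the start in *Cd68*, 196 bp upstream in *Retnla* and 40 bp upstream in *Trem2*, and also in *Mrc1*, which makes 4 of the 7 members with a window in the RefSeq table. They are common, occurring in 23.3% of 32851 windows of 250 bp. The STAT letters were found in 1 of the 7 members, *Retnla*, 145 bp upstream of the start, and in 5.85% of all windows. The C/EBP letters occurred in *Cd68*, 43 bp upstream, in *Retnla*, 134 bp upstream, and in 9.56% of all windows. In *Retnla* the STAT and C/EBP letters stood 1 base apart. These are letter matches in the sequence, and no binding was measured.

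None of the 3 general macrophage markers was called in either direction, and the groups overlapped in each. *Adgre1* (ENSMUSG00000004730, chr17:57358691-57483527, plus strand), which encodes the surface receptor F4/80, stood at 26.3, 29.7 and 22.3 CPM in YT-FF and at 31.6, 24.2 and 45.02 CPM in the libraries labelled YT-AKO. Only YT-AKO 1 and YT-AKO 3 exceeded every YT-FF library. The log2 fold change was 0.36 (SE 0.246, 95% interval −0.21 to 0.93, n = 3 libraries per group, adjusted p = 0.294 in edgeR's quasi-likelihood test, adjusted after Benjamini and Hochberg), and it was 0.55 without YT-AKO 2 (adjusted p = 0.0521).

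*Cd68* (ENSMUSG00000018774, chr11:69664213-69666153, minus strand) encodes a lysosomal glycoprotein of phagocytes. It measured 31.5, 43.7 and 27.4 CPM in YT-FF and 39.0, 39.3 and 59.2 CPM in the libraries labelled YT-AKO. YT-AKO 3 was again the highest, while YT-AKO 1 and YT-AKO 2 lay below YT-FF 2. Its log2 fold change of 0.42 (SE 0.244, 95% interval −0.14 to 0.99, adjusted p = 0.225) became 0.00 after length correction.

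*Csf1r* (ENSMUSG00000024621, chr18:61100598-61132149, plus strand), the receptor on which macrophage survival rests, stood at 150.1, 172 and 142 CPM in YT-FF and at 172, 150.4 and 195 CPM in the libraries labelled YT-AKO. Apart from 195 CPM in YT-AKO 3, all the libraries lay within the span of the YT-FF libraries or at its edge. Its log2 fold change was 0.16 (SE 0.169, 95% interval −0.23 to 0.55, adjusted p = 0.504), and 0.31 after length correction (adjusted p = 0.169). With library totals as the only scaling it was −0.16, under which the median of all tested genes moved from −0.02 to −0.34. Of its exon bases, 15.1% are shared with *Hmgxb3*, and fragments there were left uncounted.

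**Figure D1:**
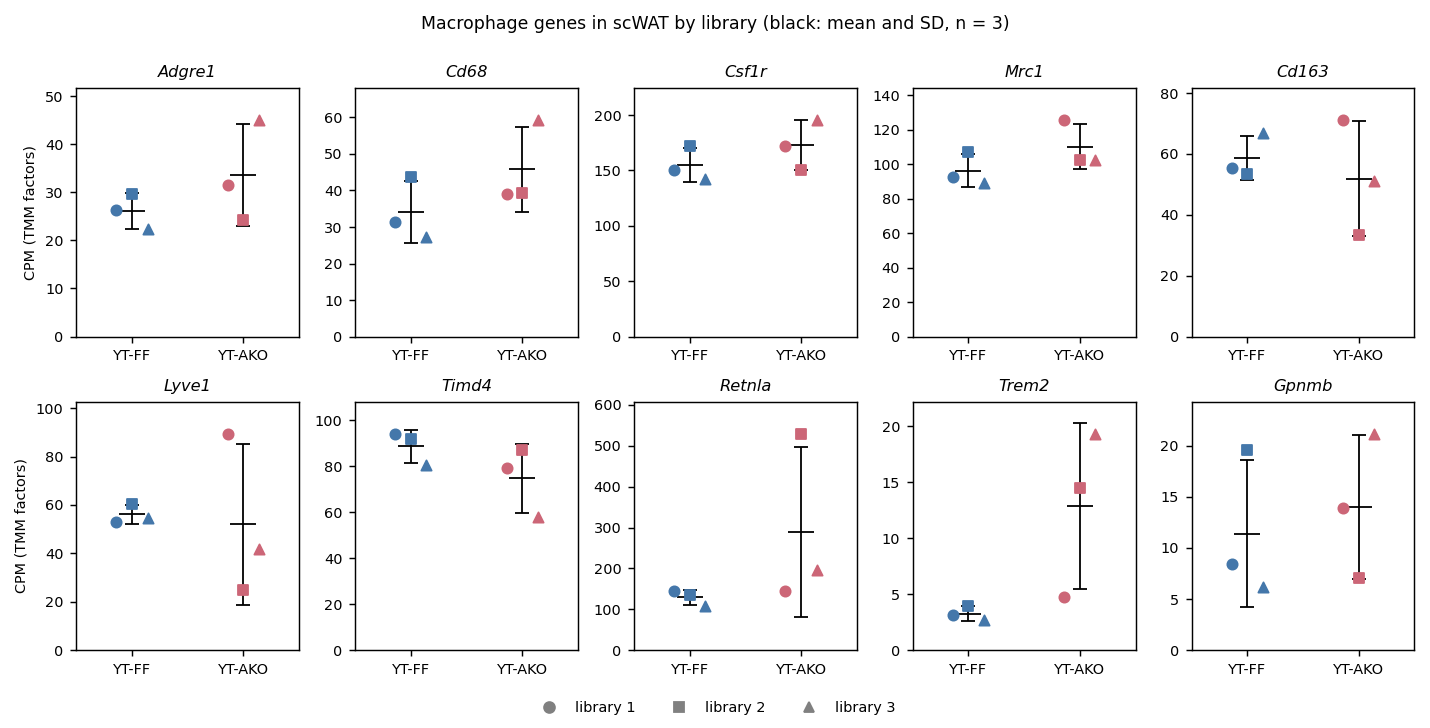
Expression of the 10 macrophage genes in each library, in CPM on the vertical axis. Points are the 3 libraries of YT-FF and the 3 labelled YT-AKO, and bars give the mean and SD. The YT-AKO points lie above every YT-FF point in *Retnla* and *Trem2* only, as they do in 25.7% of tested genes. The *Retnla* mean is set by YT-AKO 2 at 528 CPM.

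Among the resident markers, the scavenger receptors did not move together in size or sign. *Mrc1* (ENSMUSG00000026712, chr2:14229392-14332057, plus strand) encodes the mannose receptor CD206. It read 92.6, 107 and 88.8 CPM in YT-FF and 125.5, 102.5 and 102.7 CPM in the libraries labelled YT-AKO. YT-AKO 1 exceeded every YT-FF library, and YT-AKO 2 and YT-AKO 3 lay inside their range. Between groups the log2 fold change was 0.20 (SE 0.161, 95% interval −0.18 to 0.57, adjusted p = 0.381). It was 0.40 after length correction (adjusted p = 0.0930) and −0.13 with library totals as the only scaling.

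*Cd163* (ENSMUSG00000008845, chr6:124304656-124330527, plus strand), the receptor for haemoglobin bound to haptoglobin, measured 55.5, 53.3 and 66.7 CPM in YT-FF. The libraries labelled YT-AKO stood on either side of these, with 71.1 CPM in YT-AKO 1, 33.5 CPM in YT-AKO 2 and 51.2 CPM in YT-AKO 3. The log2 fold change of −0.17 (SE 0.267, 95% interval −0.79 to 0.45, adjusted p = 0.652) turned to 0.06 without YT-AKO 2.

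*Lyve1* (ENSMUSG00000030787, chr7:110850607-110863239, minus strand) encodes a hyaluronan receptor of perivascular macrophages and of lymphatic endothelium. The YT-FF libraries were tight, at 53.0, 60.6 and 54.8 CPM, and the libraries labelled YT-AKO were wide, at 89.3, 25.1 and 41.8 CPM. The YT-FF values fell between the extremes of the other group, so the SD went from 3.97 to 33.3 CPM with nearly equal means of 56.1 and 52.1 CPM. The log2 fold change was −0.11 (SE 0.405, 95% interval −1.05 to 0.83, adjusted p = 0.858), 0.22 without YT-AKO 2 and −0.74 without YT-AKO 1. *Prox1*, the transcription factor that defines lymphatic endothelium, read 10.9, 9.65 and 6.38 CPM in YT-FF and 5.92, 3.42 and 2.54 CPM in the libraries labelled YT-AKO (log2 fold change −1.18, adjusted p = 0.0550). All 8 lymphatic markers summed to 102 to 116 CPM in YT-FF and 104 to 106 CPM in the libraries labelled YT-AKO. Of this, *Ccl21a*, which was too low to be tested, held 8.48 CPM in YT-AKO 2. None of the 7 tested markers was called. In 3 of them all libraries labelled YT-AKO lay below YT-FF and in 0 above, against 25.8% and 25.7% of tested genes. The part of lymphatic vessels in the *Lyve1* values was not tested.

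*Timd4* (ENSMUSG00000055546, chr11:46810800-46844332, plus strand) encodes TIM-4, a phosphatidylserine receptor for apoptotic cells on self-maintaining resident macrophages and on macrophages of lymph nodes. It stood at 94.1, 91.8 and 80.7 CPM in YT-FF and at 79.4, 87.2 and 58.2 CPM in the libraries labelled YT-AKO. YT-AKO 1 and YT-AKO 3 were under the YT-FF range, YT-AKO 3 the farthest, and YT-AKO 2 was inside it. Its log2 fold change was −0.25 (SE 0.187, 95% interval −0.68 to 0.19, adjusted p = 0.348), and −0.56 after length correction (adjusted p = 0.0588). It was past the threshold only with length correction and without YT-AKO 2 together (−0.61, adjusted p = 0.0298), a setting chosen after seeing the data. B cell markers, which the lymph node supplies, summed to 1181 to 1406 CPM in YT-FF and 691 to 1026 CPM in the libraries labelled YT-AKO, and 5 of 8 were called lower. The part of the lymph node in the *Timd4* values was not tested.

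*Retnla* (ENSMUSG00000061100, chr16:48842551-48844461, plus strand) encodes the secreted protein RELMα, a marker of alternative activation. Its CPM was 144, 136 and 109 in YT-FF and 146, 528 and 195 in the libraries labelled YT-AKO. The 3 libraries labelled YT-AKO exceeded all of YT-FF, YT-AKO 1 by less than 2 CPM and YT-AKO 2 by far the most. This was a log2 fold change of 1.16 (SE 0.452, 95% interval 0.12 to 2.21), with an unadjusted p of 0.0336 and an adjusted p of 0.0949. At 599 bp this was the shortest member, and length correction gave 0.77 (adjusted p = 0.191). Without YT-AKO 2 it was 0.40 (adjusted p = 0.116), and without YT-AKO 1 it was 1.496 (adjusted p = 0.0421). DESeq2 called the gene on all 6 libraries (adjusted p = 0.0266).

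The lipid receptor *Trem2* was the one member called higher, while *Gpnmb* was not. *Trem2* (ENSMUSG00000023992, chr17:48346401-48354147, plus strand) was counted 74, 91 and 53 times in YT-FF, or 3.15, 3.99 and 2.73 CPM. Its counts were 82, 246 and 327 among the libraries labelled YT-AKO, or 4.76, 14.5 and 19.3 CPM. The groups did not overlap, YT-AKO 1 being close to the YT-FF range and YT-AKO 2 and YT-AKO 3 far higher. The fold was 3.90 (95% interval 1.80 to 8.46), a log2 fold change of 1.96 (SE 0.482, adjusted p = 0.0311 in the edgeR test). Length correction left 2.06 (adjusted p = 0.0344) and leaving out YT-AKO 2 left 1.87 (adjusted p = 0.0251), both close to the estimate on all 6 libraries. The correction used 4946 bp of summed exon, which can exceed the length of the transcript sequenced. The call was lost without YT-FF 1 (adjusted p = 0.128), YT-FF 2 (adjusted p = 0.122), YT-FF 3 (adjusted p = 0.0908) or YT-AKO 3 (1.56, adjusted p = 0.0656), the estimate running from 1.56 to 2.37 over the 6 omissions.

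*Gpnmb* (ENSMUSG00000029816, chr6:49036546-49070929, plus strand) encodes a transmembrane glycoprotein of lipid-laden macrophages and of melanocytes. It measured 8.38, 19.6 and 6.17 CPM in YT-FF and 13.9, 7.07 and 21.1 CPM in the libraries labelled YT-AKO. One library in each group stood high, YT-FF 2 and YT-AKO 3, and the ranges nearly coincided. The log2 fold change was 0.30 (SE 0.511, 95% interval −0.88 to 1.49, adjusted p = 0.681), and −0.11 without YT-AKO 3. Of 8 melanocyte genes 3 passed the filter and 0 were called, while *Mlana*, with at most 13 counts in a library, and *Tyr*, with at most 11, were too low to be tested. The 3 tested markers summed to 10.4 to 12.6 CPM in YT-FF and 8.85 to 13.96 CPM in the libraries labelled YT-AKO, which is near the level of *Gpnmb* itself, and the part of melanocytes was not tested. *Trem2* was highest in YT-AKO 3 too, but in YT-AKO 2 *Trem2* was high where *Gpnmb* was low.

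**Figure D2:**
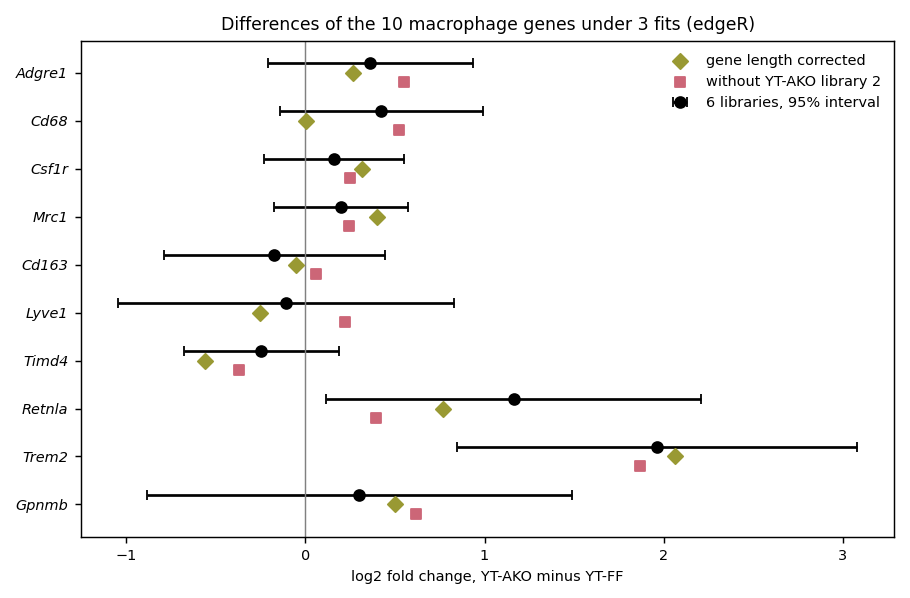
Log2 fold change of each of the 10 genes, libraries labelled YT-AKO minus YT-FF, on the horizontal axis. Black points and bars are the edgeR estimate and its 95% interval over 6 libraries, diamonds the length-corrected estimate and squares the estimate without YT-AKO 2. The interval excludes 0 for *Retnla* and *Trem2*; *Cd163* and *Lyve1* change sign without YT-AKO 2, and *Csf1r* and *Mrc1* do so when library totals alone set the scale.

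In all, edgeR called 1 of the 10 members higher and 0 lower with the adjusted p below 0.05, against 12.6% of the 16807 tested genes higher and 9.01% lower. At an unadjusted p under 0.05 there were 2, *Trem2* and *Retnla*, and DESeq2 called both of them higher and 0 members lower, where it called 15% of its tested genes higher and 11.7% lower. With length correction edgeR called 1 member higher and 0 lower, on a background of 9.75% higher and 4.67% lower. The study asked for an adjusted p below 0.01 together with a change of more than 1 log2 unit. There edgeR called 0 members, with 0.0892% of tested genes higher and 0.0357% lower, and DESeq2 called *Trem2*, with 7.07% higher and 3.56% lower. The count of called members is near the background. The 10 log2 fold changes had a median of 0.25, with 7 above 0 (5 with library totals as the only scaling), against a median of −0.02 over all tested genes. The groups were fully apart in 2 of 10 members, with YT-AKO above, and in 0 with YT-AKO below, as they were in 25.7% and 25.8% of tested genes. YT-AKO 3 was the highest library for 5 members, *Adgre1*, *Cd68*, *Csf1r*, *Trem2* and *Gpnmb*, and YT-FF 3 the lowest for 7. The libraries labelled YT-AKO had the larger SD of log2 CPM in 8 of 10 members, and in 75.7% of tested genes.

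Levels were compared between genes per length, as TPM, in which counts per kb are scaled so that each library has the same sum. In YT-FF the order ran *Retnla* (826 ± 146 TPM, SD, n = 3), *Timd4* (156 ± 18.9), *Cd68* (104 ± 30.1), *Csf1r* (102 ± 14.6), *Lyve1* (73.3 ± 7.71), *Mrc1* (57.6 ± 8.16), *Cd163* (40.6 ± 3.07), *Adgre1* (30.8 ± 5.71), *Gpnmb* (6.75 ± 4.51) and *Trem2* (2.54 ± 0.606). Among neighbours in this order, the library ranges overlapped for *Timd4* and *Cd68* and for *Cd68* and *Csf1r*, and were apart for the others. The 2 lipid-associated genes stood at the foot of the order. In the libraries labelled YT-AKO the order was *Retnla* (1039 ± 453.5 TPM), *Cd68* (89.9 ± 36.9), *Timd4* (81.8 ± 17.6), *Csf1r* (73.8 ± 24.7), *Lyve1* (46.5 ± 35.8), *Mrc1* (42.4 ± 13.4), *Adgre1* (26.1 ± 12.4), *Cd163* (24.2 ± 12.8), *Trem2* (6.15 ± 4.06) and *Gpnmb* (5.57 ± 3.48). Neighbours were apart only between *Retnla* and *Cd68* and between *Cd163* and *Trem2*, since the spread within this group was wider. *Trem2* passed *Gpnmb* in the means, with overlapping ranges. Mean TPM was lower in the libraries labelled YT-AKO for 8 of 10 members, as it was for 79.3% of tested genes, so the TPM scale itself moved. Full separation in TPM was seen for 2 members with YT-AKO below, *Cd163* and *Timd4*, and for 0 members with YT-AKO above, against 54.5% and 7.52% of tested genes.

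Ratios within a library do not depend on its scaling, and were formed from counts per kb of exon. They were not corrected for the trend with gene length, which acts within a library and was largest in YT-AKO 2. *Retnla* has 599 bp of exon, *Adgre1* 3238 bp and *Csf1r* 5774 bp. The part of this trend in the ratios was not tested. The resident sum over the pan-macrophage sum was 5.52, 4.28 and 4.96 in YT-FF and 4.86, 14.7 and 4.14 in the libraries labelled YT-AKO. The value of 14.7 belonged to YT-AKO 2 and the other 5 libraries lay close together (log2 difference 0.45, two-sided exact permutation p = 0.9, the smallest possible being 0.1). Without *Retnla* the difference was −0.44 (exact permutation p = 0.2), and without YT-AKO 2 it was −0.13 (exact permutation p = 0.4).

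*Retnla* over *Adgre1* was 29.6, 24.7 and 26.4 in YT-FF and 24.9, 118 and 23.5 in the libraries labelled YT-AKO. Outside YT-AKO 2, YT-AKO 1 stood at the low end of the YT-FF range of this ratio and YT-AKO 3 just below it. The log2 difference was 0.61 (exact permutation p = 0.9), and −0.15 without YT-AKO 2 (exact permutation p = 0.3). The lipid-associated sum over the pan-macrophage sum was 0.0325, 0.0517 and 0.0281 in YT-FF and 0.0439, 0.0620 and 0.0753 in the libraries labelled YT-AKO. YT-FF 2 exceeded YT-AKO 1, and the difference of 0.71 gave an exact permutation p of 0.2. *Trem2* over *Csf1r* was 0.0245, 0.0271 and 0.0224 in YT-FF and 0.0322, 0.113 and 0.115 in the libraries labelled YT-AKO, given as a description. Relative to this macrophage gene *Trem2* stood above the YT-FF range in all 3, most in YT-AKO 2 and YT-AKO 3. Over its adaptor *Tyrobp* the ratio was 0.0141, 0.0182 and 0.0135 in YT-FF and 0.0134, 0.0190 and 0.0448 in the libraries labelled YT-AKO. Here the groups overlapped, YT-AKO 1 being below all of YT-FF and YT-AKO 3 alone far above. *Trem2* has 4946 bp of exon and *Tyrobp* 667 bp, so the length trend enters this ratio too. *Mrc1* over *Csf1r* was the steadiest pair in YT-FF, at 0.559, 0.564 and 0.567, and read 0.659, 0.618 and 0.476 in the libraries labelled YT-AKO.

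**Figure D3:**
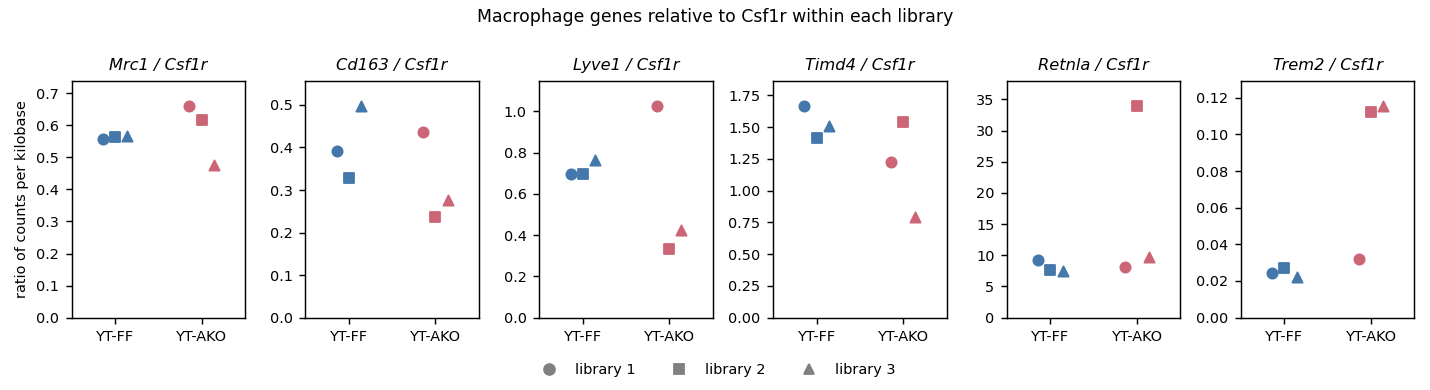
Ratios of 6 of the genes to *Csf1r* within each library, from counts per kb of exon, on linear axes from 0. Points are the libraries, marked by number. *Retnla* over *Csf1r* stands at 33.9 in YT-AKO 2 against 7.40 to 9.64 in the other 5 libraries, and *Trem2* over *Csf1r* is above 0.1 in YT-AKO 2 and YT-AKO 3. The ratios are not corrected for the trend with gene length.

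Upstream of the markers, neither growth factor of macrophages was called. *Csf1* read 69.9 ± 6.09 and 73.1 ± 24.3 CPM (log2 fold change 0.06, adjusted p = 0.863), and *Il34* read 22.4 ± 1.94 and 24.6 ± 1.52 CPM (log2 fold change 0.13, adjusted p = 0.550). The interleukin 4 pathway feeds *Retnla*: its receptor chain *Il4ra* had a log2 fold change of −0.25 (adjusted p = 0.306) and *Stat6* one of −0.41 (adjusted p = 0.101). The 2 partners of TREM2 named above, of which *Tyrobp* was chosen after its values were seen, were called in opposite directions. The adaptor *Tyrobp* read 30.1, 29.6 and 27.3 CPM in YT-FF and 48.0, 103 and 58.1 CPM in the libraries labelled YT-AKO, with no overlap (log2 fold change 1.26, SE 0.281, adjusted p = 0.0258). After length correction it was 0.86 (adjusted p = 0.0391). The kinase *Syk*, which is also used by B cell receptors, fell from 158 ± 16.9 to 91.6 ± 18.5 CPM (log2 fold change −0.79, adjusted p = 0.0318), and this call was lost after length correction (−0.42, adjusted p = 0.0909). Of 10 tested genes in this group 1 was called higher and 1 lower, near the 12.6% and 9.01% of all tested genes. After length correction it was 1 and 0, where 9.75% and 4.67% of all tested genes were called.

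Other macrophage genes were read in 7 lists of 107 genes, of which 101 were tested. In them 25 genes were called higher and 8 lower, where 12.6% and 9.01% of all tested genes were. After length correction 19 were called higher and 5 lower, where 9.75% and 4.67% of all tested genes were. The counts of lower calls are near the background. Over the 101 genes there was a median log2 fold change of 0.26 against −0.02 over all tested genes, and one of −0.07 against −0.34 with library totals as the only scaling. In the core macrophage list 7 of 22 genes were called higher and 3 lower, with a median of 0.50. The complement genes led it: *C1qa*, *C1qb* and *C1qc* encode the chains of C1q, which tags debris for uptake. *C1qa* rose from 97.0 ± 8.10 to 321 ± 136.5 CPM (log2 fold change 1.73, adjusted p = 0.0177), *C1qb* by 1.38 and *C1qc* by 1.29, and all 3 stayed called after length correction at 1.24, 0.91 and 0.93. The fractalkine receptor *Cx3cr1* (−0.83, adjusted p = 0.0490), the SLAM receptor *Cd84* (−0.76, adjusted p = 0.0283) and the pore protein *Mpeg1* (−0.63, adjusted p = 0.0442) fell, and of these *Cd84* stayed called after length correction. The markers that define the list thus moved both ways, while *Adgre1*, *Cd68* and *Csf1r* passed no test.

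In the resident and perivascular list 8 of 20 genes were called higher and 1 lower, with a median of 0.67, and 6 and 1 after length correction. The chemokine *Pf4* rose from 14.8 ± 1.94 to 62.1 ± 35.5 CPM (log2 fold change 2.07, adjusted p = 0.0186), the lectin *Clec10a* from 53.6 ± 3.87 to 143 ± 31.9 CPM (1.41, adjusted p = 0.0166) and the carbonyl reductase *Cbr2* from 39.8 ± 4.31 to 92.8 ± 19.6 CPM (1.22, adjusted p = 0.0177). All 3 stayed called after length correction. *Siglec1*, the sialoadhesin of lymph node and resident macrophages, read 137, 118 and 89.1 CPM in YT-FF and 46.6, 15.9 and 57.5 CPM in the libraries labelled YT-AKO. It was lowest in YT-AKO 2 and did not overlap between groups (log2 fold change −1.52, adjusted p = 0.0425), and the length-corrected value of −1.30 was not called (adjusted p = 0.0584). The B cell markers summed to 718, 1026 and 691 CPM in the libraries labelled YT-AKO. *Siglec1* has 7143 bp of exon, and the length trend was largest in YT-AKO 2. The part of lymph node macrophages in *Siglec1* was not tested.

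In the lipid-associated list 7 of 18 genes were called higher and 0 lower, with a median of 0.57, and 6 and 0 after length correction. The lectin *Lgals3* rose from 51.6 ± 13.1 to 194 ± 79.6 CPM (log2 fold change 1.91, adjusted p = 0.0184), the lipoprotein *Apoe* from 2305 ± 233 to 8137 ± 3276 CPM (1.82, adjusted p = 0.0185) and the lipid droplet protein *Plin2* from 323 ± 43.4 to 1001 ± 62.0 CPM (1.63, adjusted p = 0.0146). *Apoe* and *Plin2*, like *Lpl* and *Cd36* in the same list, are also made by adipocytes. Adipocyte markers summed to 10570 to 15750 CPM in YT-FF and 17810 to 31610 CPM in the libraries labelled YT-AKO, and 2 of 8 were called higher and 0 lower. *Fabp4* (1.34, adjusted p = 0.0475) and *Lipe* (0.84, adjusted p = 0.0477) were called, of which *Lipe* stayed called after length correction, and *Adipoq* had a log2 fold change of 0.43 (adjusted p = 0.176). The part of adipocytes in these calls was not tested.

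**Figure D4:**
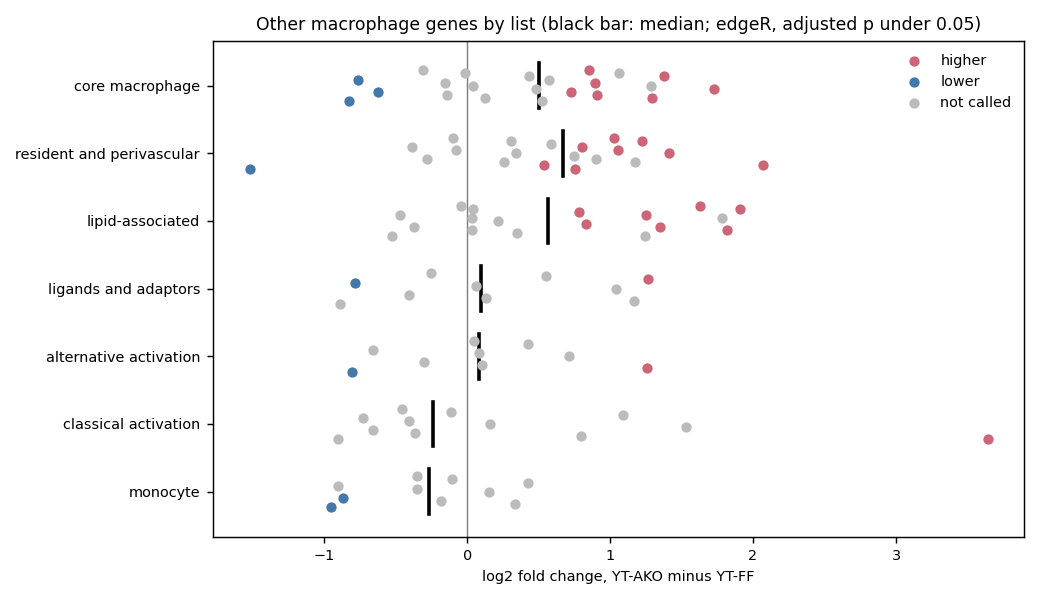
Log2 fold changes, libraries labelled YT-AKO minus YT-FF, of the genes in each macrophage list, with 1 point per tested gene. Bars mark the list medians, which run from −0.27 for the monocyte list to 0.67 for the resident and perivascular list; with library totals as the only scaling the medians of the 4 lists at the bottom are all below 0.

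The activation lists gave calls near the background of 12.6% higher and 9.01% lower. Of 9 tested genes of alternative activation 1 was called higher and 1 lower: the chemokine *Ccl24* (log2 fold change 1.26, adjusted p = 0.0462) and the transcription factor *Irf4* (−0.80, adjusted p = 0.0235), of which *Irf4* stayed called after length correction. *Arg1*, with at most 12 counts in a library, was too low to be tested. Of 12 tested genes of classical activation 1 was called higher, *Saa3*, an acute-phase protein that adipocytes also make. It rose from 0.466 ± 0.160 to 5.83 ± 5.82 CPM (log2 fold change 3.64, adjusted p = 0.0248), with 12.5 CPM in YT-AKO 1. *Il6* had at most 5 counts in a library and was not tested. Of 10 monocyte genes 0 were called higher and 2 lower, among them the integrin *Itgal* (−0.95, adjusted p = 0.0273), which lymphocytes also express. *Itgal* stayed called after length correction.

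Many of these calls changed when 1 library was left out. Calls over all tested genes changed as well, in the ranges given in the last section, so these counts are not particular to macrophage genes. Without YT-FF 1, and likewise without YT-FF 2, edgeR called 0 of the 101 genes, with 40 at an unadjusted p under 0.05 in each case. Of all tested genes, 4665 of 17183 and 4507 of 17140 had such an unadjusted p in the same edgeR fits. Without YT-FF 3 the counts were 10 higher and 4 lower, 10 and 4 of them shared with the fit on 6 libraries. Without YT-AKO 1 there were 26 higher, 22 of them among the 25, and 4 lower. Without YT-AKO 3 there were 21 higher, 19 of them among the 25, and 2 lower. Without YT-AKO 2 all 25 higher and 8 lower calls remained.

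**Figure D5:**
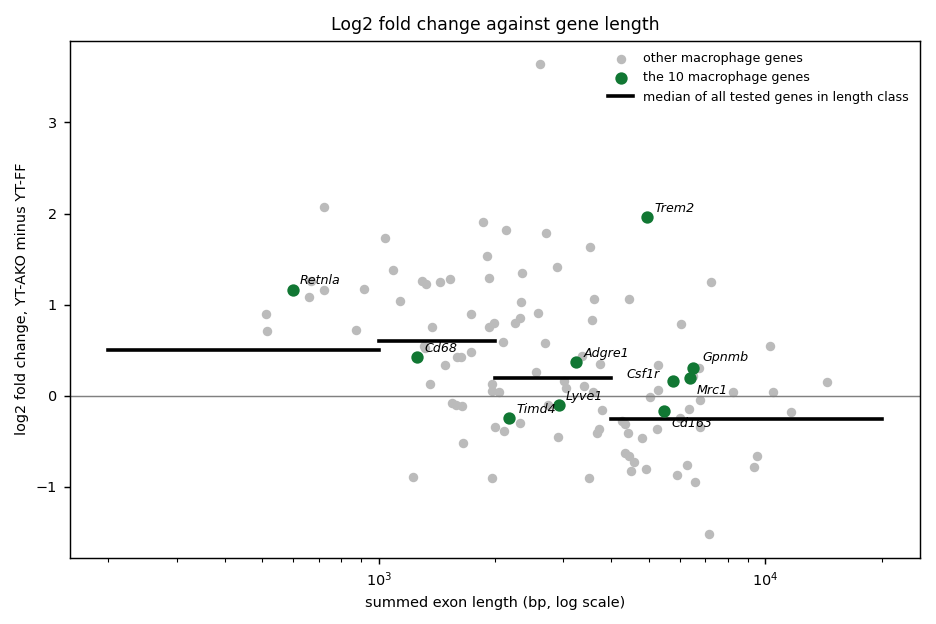
Log2 fold change, libraries labelled YT-AKO minus YT-FF, against summed exon length on a log axis. Green points are the 10 genes, grey points the 101 other macrophage genes, and black bars the medians of all tested genes in each length class. *Retnla* at 599 bp lies among short genes whose median is 0.50, and *Trem2* at 4946 bp lies far above the long-gene median of −0.26. Summed exon length can exceed that of the transcript sequenced, so the length class of a gene depends on this measure.

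Further cell types were read from their markers. Of 7 tested neutrophil markers 0 were called (*S100a8* 1.32, adjusted p = 0.188). Of 9 dendritic cell markers 1 was called lower, the receptor *Flt3* (−0.64, adjusted p = 0.0434), and 0 after length correction. Of 6 tested mast cell and eosinophil genes 4 were called higher and 1 lower, and 3 and 1 after length correction. *Cpa3* (0.86, adjusted p = 0.0288) was the one whose call was lost. All 10 genes of that list, tested or not, summed to 48.2 to 57.8 CPM in YT-FF and 82.6 to 116 CPM in the libraries labelled YT-AKO. Of 8 B cell markers 5 were called lower, and 6 after length correction. Of 8 T cell markers 2 were called lower, and 2 after length correction, while *Cd3e* had a log2 fold change of −0.33 (adjusted p = 0.338).

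Of 8 markers of blood endothelium 1 was called lower, the receptor *Kdr* (−0.78, adjusted p = 0.0358), and 0 after length correction, and *Pecam1* stood at −0.20 (adjusted p = 0.349). Of 8 markers of fibroblasts and progenitors 3 were called higher, *Ly6a* (0.98, adjusted p = 0.0295), *Pi16* (0.75, adjusted p = 0.0275) and *Lum* (0.72, adjusted p = 0.0272), and 1 lower, *Dpp4* (−0.79, adjusted p = 0.0334). Of these *Pi16* stayed called after length correction, and *Pdgfra* stood at 0.11 (adjusted p = 0.806). *Pmel* of melanocytes stood at −0.18 (adjusted p = 0.731) and epithelial *Epcam* at 0.07 (adjusted p = 0.892). Of 8 muscle markers 1 was called higher, *Acta1* (2.67, adjusted p = 0.0360), with 1107 CPM in YT-AKO 1, and 0 after length correction. In YT-AKO 3 the other 7 muscle markers lay below all of YT-FF. The part of these cells in the macrophage values was not tested.

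For 3 members, the protein-coding genes with the most similar profile over the 6 libraries were taken by the root mean square difference of centred log2 CPM. They were *Ccdc149* (0.0734), *Cln8* (0.0771) and *Ripply3* (0.0862) for *Adgre1*. For *Retnla* they were *Pstk* (0.108), *Gadd45a* (0.131) and *Cyba* (0.154), the last a subunit of the phagocyte NADPH oxidase. For *Gpnmb* they were *Adamts16* (0.288), *9130008F23Rik* (0.288) and *Dact2* (0.306), a looser likeness than for the other 2 members. These were the closest of 14077 genes compared over 6 points that share library depth and the length trend, and are a description only.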

How the data were processed

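Total RNA of whole scWAT was sequenced in 6 libraries, 3 per group. Per the file headers and methods, the authors aligned reads to mm10 with HISAT2 and made the deposited counts with featureCounts 2.0.1, 1 whole-number count per GENCODE gene, unstranded and without fragments that map to several places or overlap several genes. Of 55401 gene IDs, 260 had no symbol in the name table. Groups came from sample titles. The methods give 3 male mice per group; the labels only number the replicates, and p-values measure the spread between these libraries.

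Genes passing edgeR's filter (minimum count 10, total 15) were scaled by TMM and tested by the quasi-likelihood test (edgeR 4.0.16, limma 3.58.1, R 4.3.3), with Benjamini-Hochberg adjustment over 16807 genes and a threshold of 0.05; DESeq2 1.42.0 was an alternative. Gene length was corrected by a spline (6 df) in each library. CPM used a log2 offset of 0.1 for spread and likeness. TPM, the ratios and the length correction used the summed length of all annotated exons of a gene, which can exceed that of the transcript sequenced. Alternatives were other scalings, filters, tests, a replicate block and each library left out. Ratios used exact two-sided permutation tests. Scripts were tested on simulated data. The 10 genes and all lists were chosen with earlier results of these data known. Named genes were the members, the 4 highest ligands and adaptors, up to 3 called genes per direction in each macrophage list, and the first tested marker of each other cell type. Some genes that this rule names are not reported here. *Tyrobp*, *Il34*, *Mlana*, *Tyr*, *Arg1*, *Il6* and the markers of other cell types beyond the first were added after values were seen. Counts per library limit precision to counting error at best.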

Additional observations from a re-analysis of the deposited data

How the results depend on the processing

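The 10 genes were refitted under 18 alternatives each, 180 in all: 160 kept direction and side of the threshold, 9 changed sign, 7 lost and 4 gained a call. *Trem2* stayed called in 11 of 18 (adjusted p 0.000499 with DESeq2 to 0.128 without YT-FF 1), *Retnla* was called in 3 and *Timd4* in 1. Sign changes were *Csf1r* to −0.16 and *Mrc1* to −0.13 with library totals alone, *Cd68* to −0.016 with length correction and replicate block, *Cd163* to 0.061 and *Lyve1* to 0.22 without YT-AKO 2, *Lyve1* to 0.03 and *Gpnmb* to −0.11 without YT-AKO 3, and *Cd163* to 0.14 and *Lyve1* to 0.084 with length correction without YT-AKO 2, a setting chosen after seeing the data that also gave 1 member called lower. Members called higher were 2 with DESeq2, 2 without a low-count filter, 0 with limma-voom (1 at an unadjusted p under 0.05) and 0 to 2 with libraries left out. The median of the members was −0.061 with library totals alone and 0.086 to 0.37 with libraries left out. Library totals alone gave 1137 genes called higher and 2820 lower, and among the other macrophage genes 14 and 13 with a median of −0.066. Length correction gave 785 genes lower and 5 other macrophage genes lower. At least 10 counts in every library brought the other macrophage median to 0.16. With libraries left out, all-gene calls ran from 0 to 2925 higher and 0 to 2426 lower, and other macrophage calls from 0 to 30 higher and 0 to 9 lower. Over the libraries left out *Cd163* ran from −0.46 to 0.061, *Lyve1* from −0.74 to 0.22, *Gpnmb* from −0.11 to 0.94, the resident to pan-macrophage difference from −0.13 to 0.79 and *Retnla* to *Adgre1* from −0.15 to 1.02. The resident to pan-macrophage difference was −0.13 without YT-AKO 2 and −0.44 without *Retnla*, and *Retnla* to *Adgre1* was −0.15 without YT-AKO 2. The cause of these changes was not tested.

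Same-numbered libraries did not deviate together (correlations 0.126, −0.118 and −0.0893), so the numbers were not taken to pair them. With the replicate block 24 genes were called higher and 9 lower (34 and 13 with length correction), and 0 members and 0 other macrophage genes in either direction with and without length correction, 2 members and 44 other macrophage genes having an unadjusted p under 0.05 with the block alone. Not every library correlated best with its own number.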
